A study of Mus musculus with 18 samples.

Results

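The 10 genes described here build and control the MHC class I antigen presentation pathway, and their messenger RNA was measured in mouse liver. They are the class I heavy chains H2-K1 and H2-D1, the light chain B2m, the peptide transporter subunits Tap1 and Tap2, the loading factor Tapbp, the inducible proteasome subunits Psmb8, Psmb9 and Psmb10, and the transcriptional activator Nlrc5. They were chosen by name. All 10 were found among the 55385 genes of the deposited tables, and all 10 passed the low count filter that kept 15208 genes for testing. The 18 liver libraries were made from polyadenylated RNA, 6 for each of 3 genotypes, with 3 males and 3 females per genotype aged 17.1 to 18.0 weeks. The genotypes were Dp16, Dp16-2xIFNRs and the wild-type strain C57BL/6J, and the labels name no treatment. As background on the lines, Dp16 mice carry a duplicated segment of chromosome 16 that holds counterparts of genes of human chromosome 21, among them the interferon receptor genes. The Dp16-2xIFNRs line has the same duplication with the receptor genes brought back to normal copy number. The duplication is carried in every cell from conception, so neither line separates liver from the rest of the body. The labels number the libraries within a genotype but do not say which mice were littermates, and p-values measure the spread between these libraries. The sample descriptions hold a further number, of unstated meaning. Across genotypes, 5 of these description numbers are each shared by 2 or more libraries, 11 of the 18 libraries in all. The main fit treats the libraries as independent. The comparisons address whether the class I pathway differs with the extra copy of the segment and with the dose of the interferon receptor genes in it.

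Proteasomes degrade cytosolic proteins to peptides, the TAP transporter moves the peptides into the endoplasmic reticulum, and tapasin helps load them onto class I molecules made of a heavy chain and beta-2-microglobulin. Interferons raise the transcription of nearly all of these genes, in part through STAT and IRF proteins and in part through NLRC5, which acts at a promoter module bound by RFX, CREB or ATF, and NF-Y proteins. Hepatocytes are known for low surface class I at rest, while Kupffer cells, endothelial cells and lymphocytes in the liver carry more.

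Interferon and NLRC5 are known to act on class I promoters, so the promoters of the chains that form the class I molecule are printed here, searched for motifs of factors of that kind. Sequences are from RefSeq on GRCm38.p6, which lists promoter windows of 250 bases before to 50 bases after the start for 8 of the 10 genes. Tap2 and Nlrc5 were not matched. The 250 bases upstream of the start are shown for B2m (chr2:122147437-122147686, plus strand) and H2-K1 (chr17:34000348-34000597, minus strand), 5′ to 3′. For H2-D1, a stretch of 29 bases (chr17:35262923-35262951, plus strand) is shown, because GENCODE M21 annotates its window as exonic. Capitals mark matches, on either strand, to the ISRE core GAAANNGAAA, the IRF core AANNGAAA, the gamma-activated site TTCNNNGAA, the CCAAT box CCAAT, the cAMP response half-site TGACG and the kappa B motif.
B2m: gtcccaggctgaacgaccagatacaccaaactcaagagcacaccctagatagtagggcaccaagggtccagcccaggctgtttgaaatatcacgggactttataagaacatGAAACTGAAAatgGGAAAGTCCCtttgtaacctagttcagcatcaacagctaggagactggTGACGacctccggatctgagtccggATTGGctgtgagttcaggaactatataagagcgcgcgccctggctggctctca
H2-K1: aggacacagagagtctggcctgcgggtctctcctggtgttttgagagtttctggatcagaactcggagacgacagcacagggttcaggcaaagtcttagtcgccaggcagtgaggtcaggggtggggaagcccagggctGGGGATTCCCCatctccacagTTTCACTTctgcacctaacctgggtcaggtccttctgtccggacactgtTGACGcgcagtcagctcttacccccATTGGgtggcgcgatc
H2-D1: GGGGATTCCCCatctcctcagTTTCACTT

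In all 3 genes a kappa B match and an IRF core match stood next to each other, in the order kappa B then IRF core in H2-K1 and H2-D1 and in the opposite order in B2m. The IRF core match of B2m lay inside its ISRE core match, so these are 1 stretch of bases. B2m was the only 1 of the 8 promoters with the ISRE core, which 3.44% of 32851 promoter windows hold. The IRF core was found in 3 of 8 (B2m, H2-K1 and H2-D1) against 23.9% of all windows, and the kappa B motif in the same 3 against 8.46%. The CCAAT box was found in 6 of 8 against 37.4%, and the half-site TGACG in 5 of 8 against 20.8%. Psmb8 alone held a gamma-activated site, which 8.30% of windows hold. No match to any of the 6 motifs was found in the Psmb10 window, which says only that these letters are absent from it. The windows of H2-K1 and H2-D1 were identical at 206 of 228 aligned positions (90.4%) in a local alignment. Such an alignment keeps the best-matching stretch, so the rest of each window is not in this share. In RefSeq, Tap1 and Psmb9 face away from each other with starts 226 bases apart, and their windows share 275 bases. Their CCAAT and TGACG matches are the same bases read from opposite strands. For this pair, and for H2-K1 and H2-D1, the counts out of 8 are not counts of independent promoters. A match describes letters and is not evidence of binding.

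Of the 10 genes, 7 lie in the MHC region of chromosome 17 (GRCm38, GENCODE M21). Tapbp is at chr17:33915899-33929292, H2-K1 at chr17:33996017-34000347, Psmb9 at chr17:34181987-34187764, Tap1 at chr17:34187553-34197225, Psmb8 at chr17:34197721-34201454, Tap2 at chr17:34203527-34216321 and H2-D1 at chr17:35262730-35267499. In this annotation Psmb9, on the minus strand, and Tap1, on the plus strand, overlap at their starts, unlike in RefSeq. How reads in that overlap were counted is not known. B2m is at chr2:122147686-122153083, Nlrc5 at chr8:94434356-94527272 and Psmb10 at chr8:105935735-105938444. None of the 10 lies on chromosome 16 and so none is in the duplicated segment. The class I heavy chains resemble other class I genes in sequence. Of all 50-base windows of the H2-K1 transcript, 8.11% also occur in transcripts of other genes, and of those of H2-D1 14.3%. For 150-base windows the shares are 0% and 1.79%. The counts of both genes are uncertain for this reason, by an amount that these shares do not measure. The share of 50-base windows is 2.00% for Tapbp, 0.647% for Tap1, 0.737% for Tap2 and 0% for the other 5.

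Total counts per library ran from 38236222 to 59923315. Xist and Ddx3y matched the labelled sex in 9 of 9 males and 9 of 9 females. Hepatocyte markers (6 genes) summed to between 77965 and 133940 CPM (counts scaled to the TMM-adjusted total of each library), and T and NK cell markers (10 genes) to between 3.62 and 12.5 CPM. The libraries differed in the balance of short and long genes. This balance, the median deviation of short genes (up to 1.775 kb) minus that of long genes (from 4.67 kb) in log2 CPM, ran from -1.36 in Dp16 library 5 to 1.24 in Dp16 library 4. Its group means were -0.076 ± 0.611 (SD, n = 6) in wild-type livers, -0.278 ± 0.925 in Dp16 and 0.368 ± 0.229 in Dp16-2xIFNRs.

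To set the genes side by side, levels were compared per length, in the deposited RPKM values (reads scaled to gene length and library total). B2m stood highest in wild-type liver at 2298 ± 190 RPKM (SD, n = 6), followed by H2-K1 at 715 ± 67.3 and H2-D1 at 238 ± 31.1. The ranges of these 3 genes overlapped neither each other nor the next gene. Then came Tapbp at 39.0 ± 9.74, Psmb10 at 31.6 ± 13.4, Psmb8 at 29.3 ± 9.89, Psmb9 at 17.1 ± 6.50, Tap1 at 8.26 ± 1.60 and Tap2 at 6.51 ± 1.76. Each neighbour in this middle series overlapped the next. Nlrc5 was lowest at 0.467 ± 0.244 RPKM, 13.9-fold below Tap2 and without overlap. All 10 genes held the same rank in the 3 genotypes. By mean RPKM, B2m was exceeded by 39 of the 15208 tested genes and H2-K1 by 96, whereas Nlrc5 was exceeded by 11609.

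**Figure D1:**
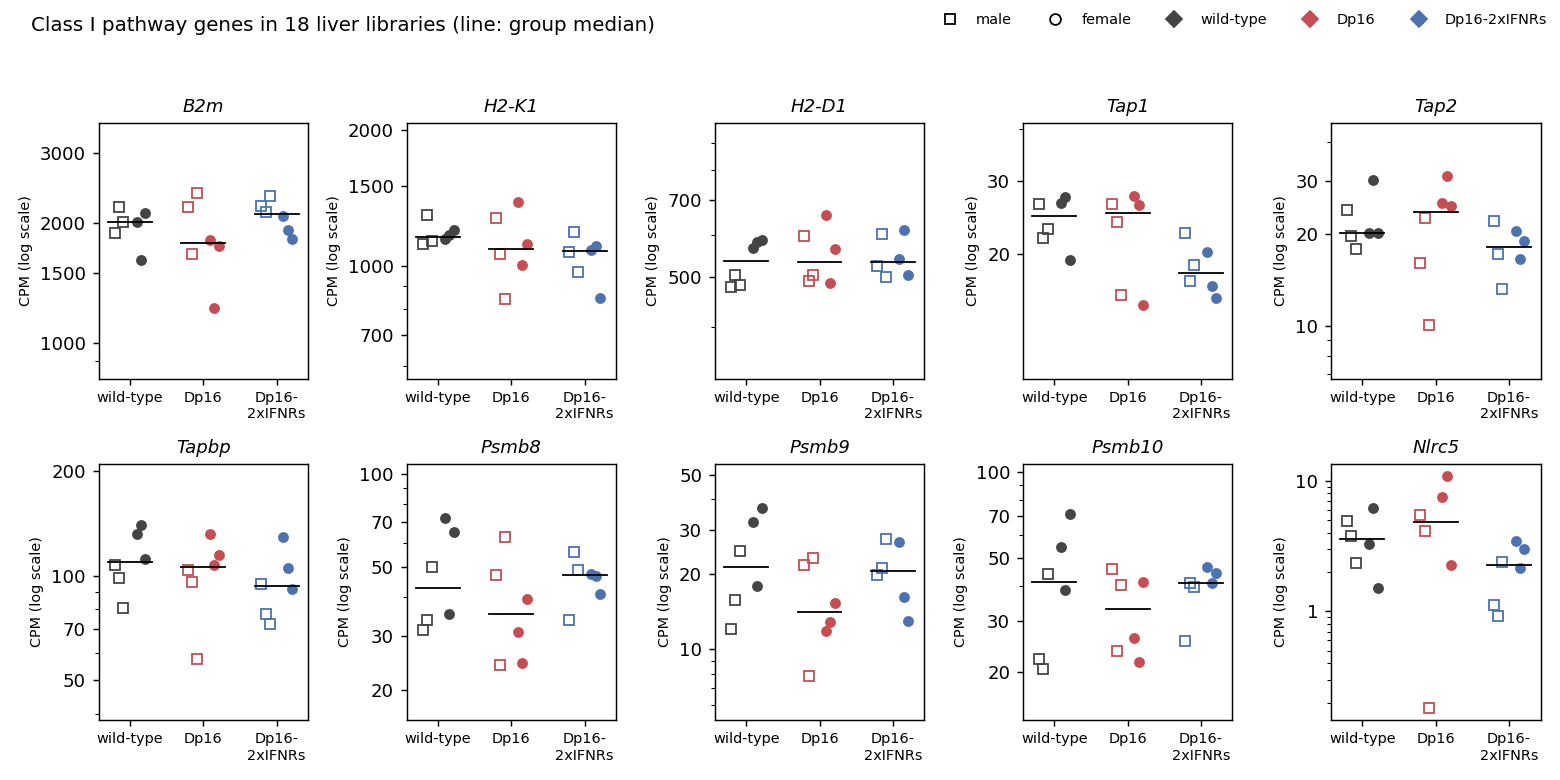
CPM (log scale) of each gene in each of the 18 libraries, by genotype; open squares are males, filled circles females, and the line is the group median. The groups overlap in all 10 panels, and Nlrc5 has the widest spread, from 0.182 to 11.0 CPM.

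No member passed the test between any pair of genotypes. With the edgeR quasi-likelihood test and Benjamini-Hochberg adjustment over 15208 genes, 0 of 10 members were called in Dp16 against wild-type, where 0.0395% of all genes were called. Again 0 of 10 were called in Dp16-2xIFNRs against wild-type (0.0986% of all genes) and in Dp16-2xIFNRs against Dp16 (0%). DESeq2 and limma-voom also called 0 members in each of the 3. At an unadjusted p under 0.05 in edgeR, 0 members stood out in Dp16 against wild-type, 1 (Tap1, lower) in Dp16-2xIFNRs against wild-type and 1 (Nlrc5, lower) in Dp16-2xIFNRs against Dp16. The shares of all genes at that level were 4.87%, 8.66% and 9.32%. The median log2 fold change of the members was -0.10 in Dp16 against wild-type, where 2 were higher and 8 lower, beside 0.01 over all genes tested. It was -0.17 in Dp16-2xIFNRs against wild-type, with 2 higher and 8 lower, beside -0.02 over all genes. It was -0.05 in Dp16-2xIFNRs against Dp16, with 4 higher and 6 lower, beside -0.02. The CPM ranges overlapped for all 10 members in all 3, where 0.217%, 0.855% and 0.158% of all genes did not overlap. The 3 comparisons share libraries and are not independent. In bulk tissue, fewer cells of a type and less RNA per cell cannot be told apart.

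**Figure D2:**
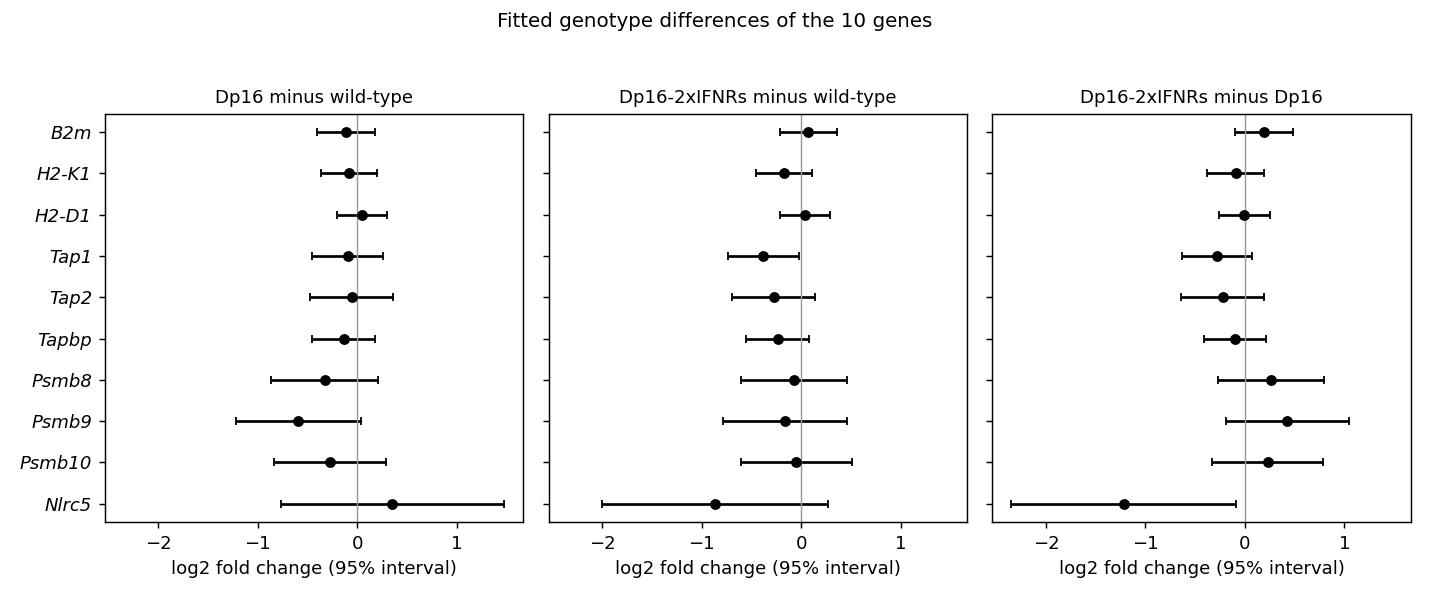
Log2 fold change of each gene (edgeR) with its 95% interval in the 3 genotype comparisons. The intervals are narrowest for H2-D1, H2-K1 and B2m and widest for Nlrc5.

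The class I heavy chains, which hold the peptide, were the steadiest members. H2-K1 ran from 1116 to 1298 CPM (median 1157) in wild-type, from 842 to 1386 (median 1091) in Dp16 and from 847.5 to 1190.4 (median 1079) in Dp16-2xIFNRs. The wild-type libraries lay closest together, and Dp16 spanned both their lowest and their highest value. The log2 fold change was -0.08 (SE 0.136) in Dp16 and -0.17 (SE 0.136) in Dp16-2xIFNRs against wild-type, with 95% intervals of -0.37 to 0.20 and -0.46 to 0.11. H2-D1 ran from 479 to 588 CPM (median 536) in wild-type, from 485 to 657 (median 534) in Dp16 and from 498 to 615 (median 533) in Dp16-2xIFNRs. Its medians were nearly equal, and the differences against wild-type were 0.05 (SE 0.121) and 0.04 (SE 0.121) in log2. Its 95% intervals, -0.21 to 0.30 and -0.21 to 0.29, correspond to folds between 0.864 and 1.23. B2m, the light chain shared by all class I molecules, ran from 1618 to 2190 CPM (median 2017) in wild-type, from 1220 to 2383 (median 1784) in Dp16 and from 1829 to 2340 (median 2110) in Dp16-2xIFNRs. Dp16 held both the lowest B2m library (Dp16 5) and the highest (Dp16 4), so its range enclosed the other groups. The log2 differences against wild-type were -0.11 (SE 0.139) in Dp16 and 0.07 (SE 0.139) in Dp16-2xIFNRs.

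The transporter genes had their lowest medians in Dp16-2xIFNRs, and neither passed the test. Tap1, whose product forms the transporter channel together with that of Tap2, ran from 19.4 to 27.5 CPM (median 24.7) in wild-type, from 15.1 to 27.6 (median 25.1) in Dp16 and from 15.7 to 22.5 (median 18.0) in Dp16-2xIFNRs. All 6 Dp16-2xIFNRs libraries lay below the wild-type mean of 24.1 CPM, but the ranges overlapped. The log2 fold change of Tap1 was -0.38 (SE 0.169, 95% interval -0.73 to -0.03) in Dp16-2xIFNRs against wild-type, with an unadjusted edgeR p of 0.0371 and an adjusted p of 0.554. It was -0.10 (SE 0.169) in Dp16 against wild-type. Tap2 ran from 17.9 to 30.1 CPM (median 20.2) in wild-type, from 10.1 to 30.9 (median 23.7) in Dp16 and from 13.3 to 22.2 (median 18.1) in Dp16-2xIFNRs. Its log2 differences against wild-type were -0.05 (SE 0.198) and -0.28 (SE 0.198). Tapbp encodes tapasin, which bridges the transporter and the empty class I molecule. It ran from 80.8 to 139.8 CPM (median 109) in wild-type, from 57.7 to 132 (median 106) in Dp16 and from 72.6 to 129 (median 93.1) in Dp16-2xIFNRs. The genotypes overlapped over most of their range, with log2 differences against wild-type of -0.13 (SE 0.151) and -0.23 (SE 0.151).

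The inducible subunits Psmb8, Psmb9 and Psmb10 replace the constitutive catalytic subunits Psmb5, Psmb6 and Psmb7 in the immunoproteasome, which favours peptides that fit class I molecules. Psmb8 ran from 31.3 to 71.9 CPM (median 42.7) in wild-type, from 24.1 to 62.6 (median 35.3) in Dp16 and from 33.7 to 56.0 (median 47.1) in Dp16-2xIFNRs. Psmb9 ran from 12.0 to 36.9 CPM (median 21.3), from 7.85 to 23.3 (median 14.1) and from 13.0 to 27.6 (median 20.6) in the same order. Psmb10 ran from 20.4 to 71.1 CPM (median 41.2), from 21.5 to 45.6 (median 33.2) and from 25.6 to 46.5 (median 41.0). All 3 had their lowest median in Dp16, and in each 1 of the 6 Dp16 libraries lay above the wild-type mean. The log2 fold changes in Dp16 against wild-type were -0.33 (SE 0.257) for Psmb8, -0.59 (SE 0.299) for Psmb9 and -0.27 (SE 0.269) for Psmb10. The adjusted edgeR p was 0.999 for each, and the unadjusted p of Psmb9, the smallest of the 10 members in this comparison, was 0.0631. In Dp16-2xIFNRs against wild-type the 3 values were -0.07, -0.16 and -0.05.

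A ratio within a library does not depend on its scaling, so each inducible subunit was set against the constitutive subunit it replaces. Each inducible gene is longer than its partner, so the ratio can still vary with the balance of short and long genes. Psmb8 to Psmb5 was 0.143 in Dp16 library 4 and 0.277 in Dp16 library 5, the highest and lowest libraries of that balance. The part of the balance in the ratios was not tested. The ratio of Psmb8 to Psmb5 in RPKM averaged 0.216 ± 0.0806 (SD, n = 6) in wild-type livers, 0.2003 ± 0.0523 in Dp16 and 0.188 ± 0.0324 in Dp16-2xIFNRs. The ratio of Psmb9 to Psmb6 averaged 0.0697 ± 0.0183, 0.0561 ± 0.0225 and 0.0528 ± 0.0109, and that of Psmb10 to Psmb7 0.302 ± 0.117, 0.260 ± 0.0495 and 0.260 ± 0.0620. Per length, the constitutive subunits were above the inducible ones in each genotype. None of the 9 differences in log2 ratio between genotypes passed an exact two-sided permutation test of the libraries, which takes no account of sex, and the ranges overlapped in each. None passed when libraries were permuted within sex either (adjusted p from 0.428 to 0.930). The smallest p was 0.0866 (adjusted over 9 tests, 0.779), for Psmb9 to Psmb6 in Dp16-2xIFNRs against wild-type, with a log2 difference of -0.39. In Dp16 against wild-type the same ratio differed by -0.36 (exact permutation p = 0.208, adjusted 0.935). By sex, the ratio of Psmb10 to Psmb7 ran from 0.274 to 0.422 in the 9 females and from 0.148 to 0.284 in the 9 males, a description made after the values were seen and not tested. Among females alone, with 3 libraries each, that ratio ran from 0.377 to 0.422 in wild-type livers, from 0.274 to 0.308 in Dp16 and from 0.298 to 0.329 in Dp16-2xIFNRs, so wild-type females lay above both. Wild-type males, at 0.148 to 0.237, overlapped the males of both other genotypes. Gaps between groups of 3 libraries can arise without any difference, and the gap in females was not tested.

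**Figure D3:**
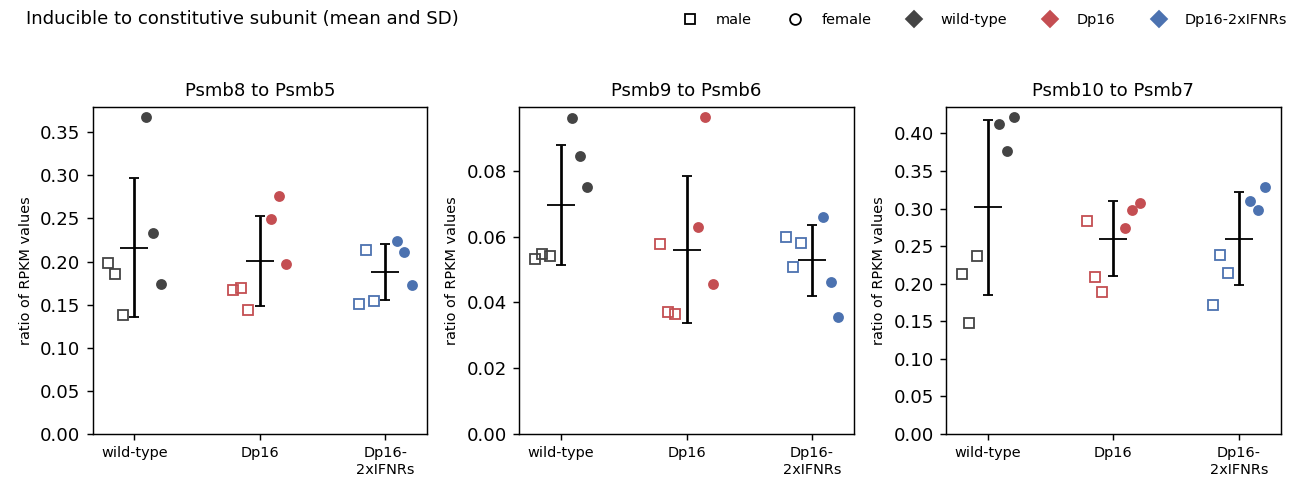
Ratio of the RPKM of each inducible subunit to that of its constitutive counterpart in each library, by genotype; open squares are males, filled circles females, with the mean and SD of each genotype. The ranges of the genotypes overlap in all 3 panels.

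Nlrc5, the activator of class I promoters, was the most variable member. It ran from 1.51 to 6.17 CPM (median 3.56) in wild-type, from 0.182 to 11.0 (median 4.81) in Dp16 and from 0.917 to 3.44 (median 2.27) in Dp16-2xIFNRs. Both extremes were Dp16 libraries, library 4 with 6 counts and library 5 with 880. All 6 Dp16-2xIFNRs libraries lay below the wild-type mean of 3.67 CPM and below the Dp16 mean of 5.09 CPM, and the ranges overlapped. The log2 fold change was -0.86 (SE 0.541, 95% interval -1.996 to 0.27) against wild-type, with an adjusted edgeR p of 0.646. Against Dp16 it was -1.22 (SE 0.539, 95% interval -2.35 to -0.09), with an unadjusted p of 0.0353 and an adjusted p of 0.532. In Dp16 against wild-type it was 0.36 (SE 0.534). Leaving out 1 library at a time moved the difference between the Dp16 lines between -1.47 (without Dp16 library 4, adjusted p = 0.0663) and -0.94 (without Dp16 library 5, adjusted p = 0.954) in log2.

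The members did not move as 1 block across libraries. Across the 18 libraries, which share depth and scaling within each library, Pearson's r of log2 CPM was 0.86 between Psmb8 and Psmb9, 0.86 between Psmb8 and Psmb10 and 0.75 between Psmb9 and Psmb10. A second set was formed by Tap2 and Tapbp (0.78), Tap2 and Nlrc5 (0.73) and Tapbp and Nlrc5 (0.71). Between the sets the values ran from -0.65 (Psmb8 with Tap2) to 0.01 (Psmb10 with Tapbp). H2-K1 and H2-D1 correlated at 0.59. B2m and Tap2 gave -0.78, although the light chain and the transporter serve the same molecule. Tap1 and Psmb9, the divergent neighbours, gave -0.16.

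These sets differed in gene length. The balance of short and long genes had r = 0.82 with B2m (0.86 kb), 0.68 with Psmb10 (1.31 kb), 0.72 with Psmb9 (1.35 kb) and 0.84 with Psmb8 (1.63 kb). It had r = -0.60 with Tapbp (2.90 kb), -0.66 with Tap1 (2.95 kb), -0.85 with Tap2 (3.44 kb) and -0.83 with Nlrc5 (8.12 kb). H2-K1 (r = -0.31) and H2-D1 (r = 0.05), of 1.66 and 2.26 kb, lay between. H2-K1 is nearly as short as Psmb8 and had the opposite sign, so r did not follow length in every member. Without Dp16 libraries 4 and 5, the extremes of the balance, the values were 0.70 for B2m, 0.79 for Psmb8, -0.75 for Tap2 and -0.74 for Nlrc5 (n = 16). The mean log2 CPM of the 14 subunits of the constitutive 20S proteasome core gave nearly the same r over the 18 libraries. It was 0.82 with B2m, 0.84 with Psmb8, -0.86 with Tap2 and -0.80 with Nlrc5. The r values are descriptions across the same 18 libraries, and what sets them was not tested. With each library's trend of log2 CPM on gene length taken out as an offset in edgeR, an alternative chosen after seeing the data, the standard error of Psmb8 in Dp16 against wild-type went from 0.257 to 0.167 and its log2 fold change from -0.33 to -0.27. That of Psmb9 became -0.48 (adjusted p = 0.719), that of Nlrc5 in Dp16-2xIFNRs against Dp16 -0.66 (adjusted p = 0.868) and that of Tap1 in Dp16-2xIFNRs against wild-type -0.37 (adjusted p = 0.475). In Dp16 against wild-type the standard error rose for H2-K1, from 0.136 to 0.164, and for B2m, from 0.139 to 0.153. The log2 fold change of H2-K1 in Dp16-2xIFNRs against wild-type went from -0.17 to -0.31 (adjusted p = 0.591). Against Dp16 it went from -0.09 to -0.32 (adjusted p = 0.868). No member was called between genotypes with this offset either.

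**Figure D4:**
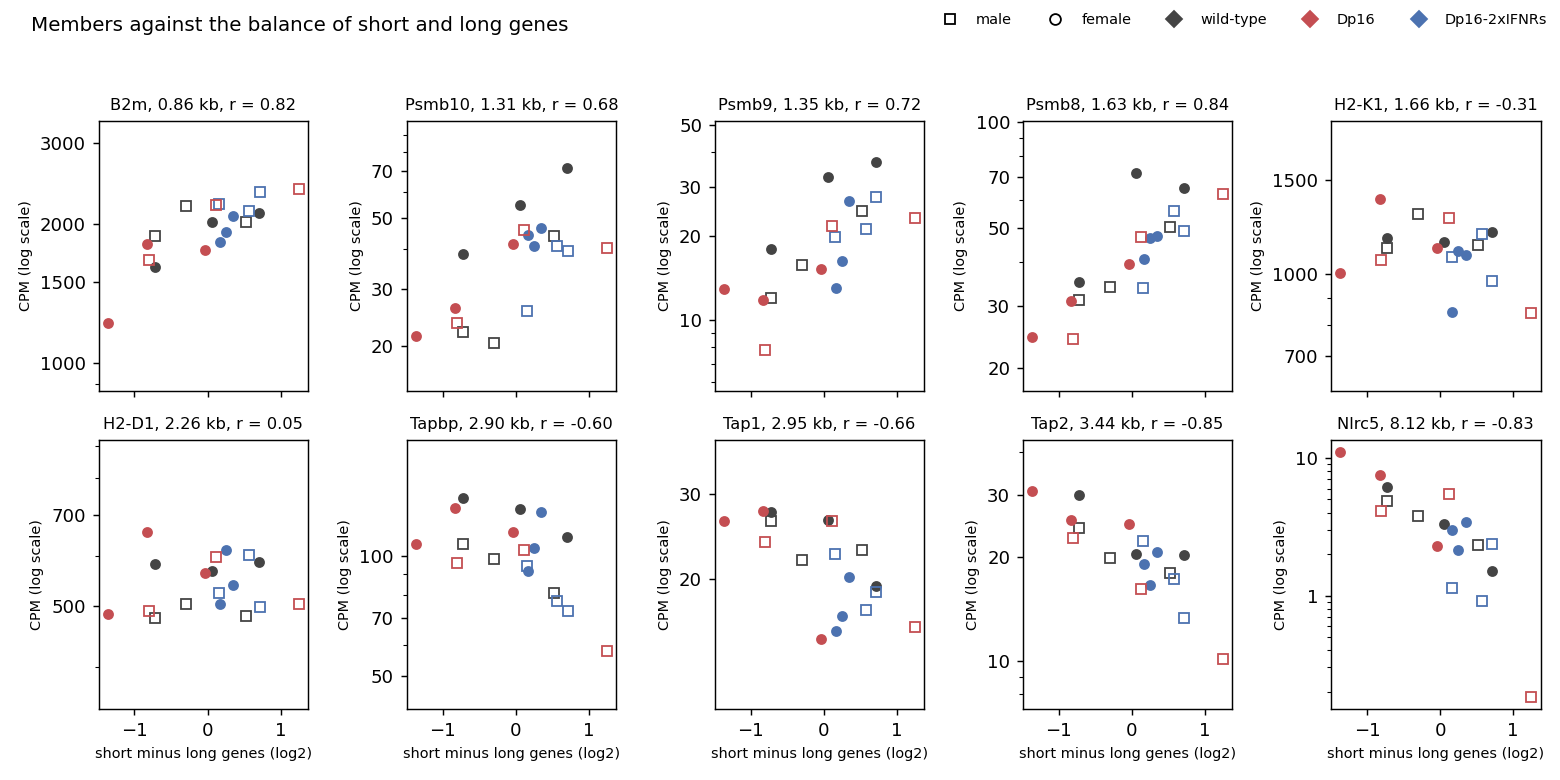
CPM (log scale) of each gene against the balance of short and long genes in the same library (log2), panels ordered by gene length, which is given with Pearson's r in each title; open squares are males, filled circles females. B2m and the inducible subunits run upward and Tap2 and Nlrc5 downward, while H2-D1 is flat.

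Tapbp alone was called between the sexes in the main edgeR fit, and the call was lost in several other fits. Its mean CPM was higher in females in all 3 genotypes. Males ran from 57.7 to 107 CPM (median 94.4) and females from 91.8 to 139.8 (median 115), and each of the 9 females lay above the male mean of 87.6 CPM although the ranges overlapped. Within wild-type the highest male had 107 CPM and the lowest female 112, and within Dp16 the highest male had 104 and the lowest female 108. Within Dp16-2xIFNRs the sexes overlapped. With 3 libraries per sex, ranges can part without any difference, and the share of all genes that did so was not counted. Tapbp rose by 0.43 in log2 (SE 0.124, 1.35-fold) in females with an adjusted edgeR p of 0.0408. So 1 of 10 members was called, where 6.56% of all genes were, and 1 of 10 had an unadjusted p under 0.05, where 18.8% did. The sexes' ranges overlapped for all 10 members, and for 1.87% of all genes they did not. The call was near its threshold. Leaving out 1 library at a time gave log2 differences of 0.37 to 0.48 and adjusted p from 0.0321 to 0.0916, and the call was lost in 10 of 18 cases, namely without wild-type 2, 3, 4 or 5, Dp16 1 or 6, or Dp16-2xIFNRs 2, 3, 4 or 5. It was also lost with no low count filter (adjusted p = 0.0855) and when libraries with the same description number were treated as a random block (0.0560). Markers of several other cell types had the same sign: 6 of 6 Kupffer cell markers (median 0.24), 5 of 5 stellate cell markers (median 0.42) and 4 of 4 B cell markers (median 1.03) were positive, and none was called. Positive values were also found for 4 of 5 liver endothelial markers (median 0.33), with none called. Of 6 hepatocyte markers 2 were positive (median -0.06), and 1 was called by edgeR, higher in females. Of 3 erythroid markers 1 was positive (median -0.33), and of 3 plasma cell markers 2 were (median 0.29). In both of these lists 1 marker was called by edgeR, lower in females. The r of Tapbp across the 18 libraries was 0.37 with the Kupffer cell markers and 0.37 with the liver endothelial markers. Without Dp16 libraries 4 and 5 these values were 0.57 and 0.61. With the hepatocyte markers r was 0.30, and 0.61 without those libraries. The r of largest size among the marker lists was with erythroid markers, at -0.73, and -0.87 without those libraries. The part of these markers in the Tapbp difference was not tested. The balance of short and long genes averaged 0.167 ± 0.680 in males and -0.158 ± 0.666 in females (SD, n = 9). With the length offset Tapbp rose by 0.41 (adjusted p = 0.0261), and Psmb10 was called as well, at 0.47 (adjusted p = 0.0364), from 0.32 without the offset.

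**Figure D5:**
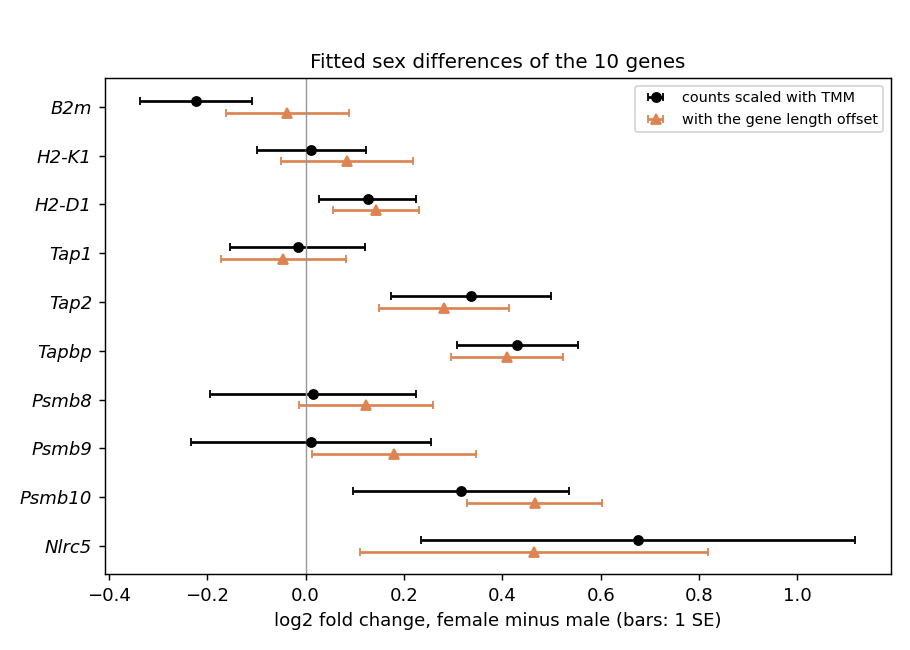
Log2 fold change of each gene between females and males (positive: higher in females) with 1 SE, without and with the gene length offset. Tapbp lies at 0.43 and 0.41, B2m moves from -0.22 to -0.04 and Psmb10 from 0.32 to 0.47.

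The other 9 members did not pass the edgeR test between the sexes. Tap2 had a log2 difference of 0.34 (SE 0.163, adjusted p = 0.272), B2m of -0.22 (SE 0.114, adjusted p = 0.306) and Nlrc5 of 0.68 (SE 0.441, adjusted p = 0.442). For Tap2, 8 of 9 females lay above the male mean, and for B2m 1 of 9.

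The sex difference itself was compared between genotypes, with 3 libraries per sex and genotype. No member was called by edgeR, in Dp16 against wild-type (0% of all genes) or in Dp16-2xIFNRs against wild-type (0%), and DESeq2 and limma-voom called none of the members. At an unadjusted p under 0.05, 2 members stood out in the former and 0 in the latter, beside 7.88% and 2.24% of all genes. The inducible subunits had the smallest p. Psmb10 ran from 38.6 to 71.1 CPM in wild-type females against 20.4 to 43.9 in wild-type males, and from 21.5 to 41.3 in Dp16 females against 23.5 to 45.6 in Dp16 males. Psmb8 ran from 35.2 to 71.9 CPM in wild-type females against 31.3 to 50.2 in males, and from 24.5 to 39.6 in Dp16 females against 24.1 to 62.6 in males. Wild-type females were on the high side and Dp16 females on the low side, with overlap in each pair. The interaction in log2 was -1.23 (SE 0.477) for Psmb10, -1.08 (SE 0.469) for Psmb8 and -1.13 (SE 0.545) for Psmb9, each with an adjusted edgeR p of 0.582. All 14 subunits of the constitutive core had a negative interaction (median -0.99), none was called and 0 had an unadjusted p under 0.05. Most immune cell markers were negative in this interaction: 6 of 6 for Kupffer cells (median -0.83, 4 with an unadjusted p under 0.05) and 8 of 9 for T and NK cells (median -1.91, 3 with an unadjusted p under 0.05), none called. Negative values were not confined to immune cells: 5 of 6 hepatocyte markers were negative (median -0.32, 1 with an unadjusted p under 0.05, none called). For liver endothelial cells, 2 of 5 were negative (median 0.32). Their part in the values of the inducible subunits was not tested. The balance of short and long genes averaged 0.015 ± 0.713 in wild-type females, -0.166 ± 0.633 in wild-type males, -0.743 ± 0.665 in Dp16 females and 0.186 ± 1.02 in Dp16 males (SD, n = 3), and its part in these values was not tested. With the length offset the interaction was -0.77 for Psmb10 and -0.66 for Psmb8 (adjusted p = 0.619 and 0.622).

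The wider pathway was read from 6 lists of 80 genes, of which 1 symbol (H2-T9) had no match in the tables. No gene of any list passed the edgeR test between genotypes. Of 12 genes for peptide loading and trimming, all 12 were tested, and the median log2 fold change was 0.01 in Dp16 and -0.11 in Dp16-2xIFNRs against wild-type. Erap1, the aminopeptidase that trims peptides in the endoplasmic reticulum, had -0.43 (SE 0.173) in Dp16-2xIFNRs against wild-type, with 0 of 6 libraries above the wild-type mean and an adjusted p of 0.523. Against Dp16 it had -0.45, while Pdia3, a thiol oxidoreductase of the loading complex, had 0.38 (adjusted p = 0.532 for both). In Dp16 against wild-type the smallest p fell to the cytosolic peptidase Blmh at -0.26 and the aminopeptidase Lnpep at 0.31, and Pdia3 had 0.27 in Dp16-2xIFNRs.

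Among the other class I and class I-like chains, 16 of 17 with a match were tested. Mr1, which presents microbial vitamin metabolites to MAIT cells, averaged 7.28 CPM in wild-type livers, 5.37 in Dp16 and 4.09 in Dp16-2xIFNRs. The Dp16-2xIFNRs range did not overlap that of wild-type, as for 0.855% of all genes. Its log2 fold change was -0.82 (SE 0.213, edgeR adjusted p = 0.183) against wild-type in Dp16-2xIFNRs and -0.48 in Dp16 (adjusted p = 0.943). DESeq2 called the former (adjusted p = 0.0279). H2-M2, a nonclassical chain, was low at 0.356 CPM in wild-type, with log2 values of 1.57 in Dp16 and 1.66 in Dp16-2xIFNRs (adjusted p = 0.999 and 0.560). Against Dp16, Dp16-2xIFNRs had 0.32 for H2-Q10, a secreted class I chain made by hepatocytes, and 0.33 for H2-T23, the Qa-1 chain.

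The 14 subunits of the constitutive 20S core were all lower in Dp16 than in wild-type (median log2 -0.16) and all higher in Dp16-2xIFNRs (median 0.15). None passed the test, and 0 had an unadjusted p under 0.05. Psmb3 (-0.26) and Psmb1 (-0.26) had the smallest p in Dp16, Psmb2 (0.21) and Psmb7 (0.15) in Dp16-2xIFNRs, and Psmb3 (0.42) and Psma1 (0.30) between the 2 lines. The balance of short and long genes had its lowest mean in Dp16 and its highest in Dp16-2xIFNRs, and its part in these values was not tested. With the length offset Psmb2 and Psmb7 had -0.01 and -0.03 in Dp16-2xIFNRs against wild-type.

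Among 9 proteasome activator and assembly genes, Psmg1, an assembly chaperone, lies in the duplicated segment (chr16:95979933-95990960). Apart from interferon receptor genes, Psmg1 is the 1 gene of the lists that does. It averaged 21.98 CPM in wild-type livers, 32.8 in Dp16 and 40.3 in Dp16-2xIFNRs. The Dp16-2xIFNRs libraries did not overlap wild-type, and those of Dp16 did. The log2 fold change was 0.56 (SE 0.20, 1.47-fold, adjusted p = 0.738) and 0.87 (SE 0.20, 1.83-fold, adjusted p = 0.119), neither of them called by edgeR. The latter was called by DESeq2 (adjusted p = 0.0113), with the description number as a random block (0.0222), with the groups compared fitted alone (0.0125), on log2 RPKM with 0.1 added (0.0156) or 1 added (0.0160), without Dp16 libraries 4 and 5 (0.00961) and with the length offset (0.65, 0.00391). With that offset it was called in Dp16 against wild-type too (0.62, adjusted p = 0.00787). The activator Psme4 had 0.19 in Dp16 against wild-type and -0.44 in Dp16-2xIFNRs against Dp16, where Psmg2 had 0.34, and the maturation factor Pomp had 0.30 in Dp16-2xIFNRs against wild-type.

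Of 20 regulators, Irf8, a transcription factor of myeloid and B cells, had 0.51 (adjusted p = 0.948) in Dp16 and 0.61 (adjusted p = 0.477) in Dp16-2xIFNRs against wild-type, with 6 of 6 libraries above the wild-type mean in both. Irf2, which competes with Irf1 for its sites, had -0.50 (adjusted p = 0.471) in Dp16-2xIFNRs. Ciita, the class II counterpart of Nlrc5, had 0.74 (SE 0.364) in Dp16 at 0.844 CPM in wild-type. It is on chromosome 16 (chr16:10480059-10528418) but outside the duplicated segment. Against Dp16, Dp16-2xIFNRs had -0.53 for the signal transducer Stat2 and -0.40 for the kinase Jak2, with 0 of 6 libraries above the Dp16 mean for both (adjusted p = 0.542 and 0.576).

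Of 7 interferon ligands and receptors, 5 were tested. In Dp16 against wild-type, 3 of the 5 had an unadjusted edgeR p under 0.05, all higher (median log2 of the 5, 0.52). In Dp16-2xIFNRs against Dp16, 4 of the 5 did, all lower (median -0.44). The shares of all genes at that level were 4.87% and 9.32%, and 0 of the 5 were called by edgeR in either. Ifnb1 had 0 counts in all 18 libraries and Ifng 0 in wild-type. Ifnar1 and Ifnar2, the subunits of the type I interferon receptor, lie in the segment. Ifnar1 averaged 22.3 CPM in wild-type livers, 33.6 in Dp16 and 23.1 in Dp16-2xIFNRs, and Ifnar2 61.5, 88.1 and 68.2 CPM. The log2 fold changes in Dp16 against wild-type were 0.58 (SE 0.147, adjusted p = 0.280) and 0.52 (SE 0.128, adjusted p = 0.246), and DESeq2 called both (adjusted p = 0.0173). Against Dp16, Dp16-2xIFNRs had -0.53 and -0.37, and the 6 libraries lay below the Dp16 mean for both. In Dp16-2xIFNRs against wild-type Ifngr1 had 0.23 and Ifnar2 0.15. Beside these receptor values, none of the 10 class I genes was called in the same libraries.

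Between the sexes, 7 genes of the lists passed the edgeR test, as did 6.56% of all genes. In peptide loading and trimming, 3 of 12 fell in females: Lap3, a leucine aminopeptidase, by 0.49 (adjusted p = 0.00573), Pdia3 by 0.55 (0.00683) and Calr, the chaperone calreticulin, by 0.52 (0.0105). For each of the 3, 0 of 9 females lay above the male mean. Tapasin works beside Pdia3 and calreticulin in the loading complex, and Tapbp had the opposite sign. Among the other class I chains, 3 of 16 rose in females: H2-Q1 by 1.33 (2.52-fold, 20.3 against 8.51 CPM, adjusted p = 0.00215), Mr1 by 0.68 (adjusted p = 0.0206) and H2-Q4 by 0.50 (adjusted p = 0.0267). H2-Q1 and H2-Q4 are close copies of other class I genes, so their counts are uncertain. Mr1 lost its call with the description number as a random block (0.71, adjusted p = 0.0541). H2-Q4 lost its call without Dp16 libraries 4 and 5 (0.40, adjusted p = 0.0671), with no low count filter (0.0508) and in 5 of 18 fits without 1 library, namely without wild-type 2 or 3, Dp16 5, or Dp16-2xIFNRs 1 or 2 (adjusted p from 0.0131 to 0.0628 over the 18). Of 9 activator and assembly genes, 1 passed: Psme3, which caps the 20S core, fell by 0.44 (adjusted p = 0.00763). It was not called by limma on log2 RPKM (-0.31, adjusted p = 0.149) or with no low count filter (0.0695). None of the 14 core subunits passed, and all 14 were lower in females (median -0.36), Psmb7 by -0.34 and Psma5 by -0.48 (adjusted p = 0.266 and 0.284). Among regulators and receptors, Irf1 (0.44), Rfx5 (0.49), Ifngr2 (0.39) and Il10rb (0.24) did not pass, with adjusted p from 0.147 to 0.490.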

How the data were processed

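Liver RNA of 18 mice was read as the whole-number counts per gene that the authors deposited for 55385 genes, together with the RPKM values deposited by the authors for the same libraries. The submitters' processing notes name HISAT2 2.1.0 and HTSeq 0.6.1 on GRCm38, with SAMtools 1.5, FastQC 0.11.5 and bcl2fastq. Libraries were strand-specific per the labels' protocols. How HTSeq was set for strand and for reads that fit several genes was not given in the sources used here.

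Genes were kept with filterByExpr by genotype, scaled with TMM and fitted in edgeR 4.0.16 under R 4.3.3 by quasi-likelihood, on genotype plus sex, over the 18 libraries together. Interaction terms were added for the comparison of sex differences. Calls are genes whose p, adjusted by Benjamini-Hochberg across the tested genes, was under 0.05. The SE is the absolute log2 fold change divided by the square root of the F statistic. CPM values use TMM-scaled totals. DESeq2 1.42.0, limma 3.58.1 (voom, and log2 RPKM with 0.1 or 1 added) and other filters, subsets and offsets were alternatives. Another alternative took the description number as a random block in voom, where the correlation within numbers was 0.407. Subunit ratios were tested by exact permutation of libraries between genotypes.

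The members and gene lists were chosen with earlier results of these data known. All 10 members are named. From each pathway list the text names, in each comparison of genotypes or sexes, up to 4 called genes or otherwise the 2 with the smallest p, plus Psmb5, Psmb6, Psmb7, Ciita and Psmg1. Whether the sample numbers in the titles pair the mice could not be settled. Over 18 pairs of same-numbered libraries, deviations from the genotype means, with sex left in, correlated at -0.449 to 0.342. The 8 that exceeded 0.1 were the 8 pairs of the same sex, and every pair of opposite sex was negative. These values follow sex and so cannot show whether the numbers pair mice.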

Additional observations from a re-analysis of the deposited data

Results flagged for a closer look

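In 39 groups of 6 libraries (members and subunit genes by genotype), 1 library stood apart from the others of its group: Psmb10 in Dp16-2xIFNRs library 1, a male, with 25.58 CPM. The next library had 39.5 CPM and the highest 46.5. Chance alone sets apart about 1 group in 20, so 1 of 39 is fewer than that.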

How the results depend on the processing

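Across the alternatives, members called between genotypes stayed at 0 in all of them. The lowest adjusted p of any member over 33 settings was 0.503 in Dp16 against wild-type, 0.265 in Dp16-2xIFNRs against wild-type and 0.0663 in Dp16-2xIFNRs against Dp16. Between the sexes, 1 member was called, against 0 with no low count filter, 0 with the description number as a random block and 2 with the length offset, and from 0 to 1 over the 18 fits without 1 library. A replicate block on the sample numbers changed no call of a member, with Psmb9 in Dp16 against wild-type at -0.59. Over all genes, edgeR called 6, 15 and 0 genes between genotypes (Dp16 and Dp16-2xIFNRs against wild-type, then against each other) and 998 between the sexes, against 91, 186, 44 and 1569 with DESeq2, 10, 21, 0 and 1087 with limma-voom and 21, 48, 0 and 1342 with the length offset. For the following changes of sign the cause was not tested. In Dp16 against wild-type, males alone gave 0.048 for B2m, 0.22 for Psmb8, 0.016 for Psmb9, 0.35 for Psmb10 and -0.15 for Nlrc5, and females alone -0.032 for H2-D1 and 0.20 for Tap2. Without Dp16 libraries 4 and 5, H2-K1 was at 0.040, Tap2 at 0.0069 and Tapbp at 0.0086. The length offset gave 0.0098 for H2-K1 and 0.0037 for B2m. In Dp16-2xIFNRs against wild-type, males alone gave 0.27 for Psmb8, 0.39 for Psmb9 and 0.30 for Psmb10. H2-D1 was at -0.074 in females alone, at -0.0291 on log2 RPKM with 0.1 added, at -0.0290 with 1 added and at -0.012 with the length offset. B2m was at -0.21 with the offset, and Psmb10 at 0.036 with limma-voom and 0.029 with the random block. In Dp16-2xIFNRs against Dp16, males alone gave 0.016 for H2-K1, 0.021 for H2-D1, 0.094 for Tap2 and -0.050 for Psmb10. DESeq2 size factors gave 0.0013 for H2-D1, and the offset -0.21 for B2m and -0.0091 for Psmb10. Without 1 library at a time, H2-D1 ran from -0.00022 to 0.10 and Tap2 from -0.14 to 0.087 in Dp16 against wild-type. In Dp16-2xIFNRs against wild-type, H2-D1 ran from -0.0060 to 0.078, Psmb8 from -0.18 to 0.085, Psmb9 from -0.32 to 0.0094 and Psmb10 from -0.19 to 0.13, and against Dp16 H2-D1 ran from -0.055 to 0.040. The log2 ratio of Psmb8 to Psmb5 ran from -0.19 to 0.090 (Dp16 against wild-type), from -0.26 to 0.018 (Dp16-2xIFNRs against wild-type) and from -0.16 to 0.029 (Dp16-2xIFNRs against Dp16). In the last comparison, that of Psmb9 to Psmb6 ran from -0.14 to 0.14, and was 0.055 without Dp16 libraries 4 and 5, and that of Psmb10 to Psmb7 from -0.10 to 0.10. Among the other pathway genes, males alone gave 0.20 for Psmb3, 0.25 for Psmb1 and -0.16 for Psme4 in Dp16 against wild-type, and the length offset -0.011 for Psmb2 and -0.031 for Psmb7 in Dp16-2xIFNRs. Nlrc5 rests on 6 counts in its lowest library and 880 in its highest, which limits its precision.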

Other observations

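Outside the 10 members and the pathway lists, 8 of 10330 genes averaging a log2 CPM of 1 or more were picked as most like the mean of the members' standardised log2 CPM over the 18 libraries: Igtp (Pearson's r = 0.80), Gbp6 (0.79), Shisa5 (0.78), Zbp1 (0.77), Adssl1 (0.77), Rbm17 (0.76), Gsdmd (0.74) and Pepd (0.73). The libraries share depth and scaling, and these values are a description of this ranking.

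Plasma cell markers (4 genes) summed to a median of 7.94 CPM in wild-type livers, 15.0 in Dp16 and 24.9 in Dp16-2xIFNRs, with ranges of 3.56 to 14.2, 2.92 to 33.8 and 16.4 to 48.0. Monocyte and neutrophil markers (6 genes) had medians of 6.26, 9.03 and 15.3 CPM. Kupffer cell markers (6 genes) had medians of 261, 253 and 233 CPM. Across the 18 libraries, r of log2 CPM with the plasma cell markers ran from -0.73 (Tap1) to 0.58 (Psmb8) over the 10 members, and the latter was 0.44 without Dp16 libraries 4 and 5. The part of these markers in the values of the class I genes was not tested.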
